A study of Mus musculus with 8 samples.

Results

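Histones are the proteins that package DNA, and their genes in the mouse fall into clustered genes, named Hist, and variant histone genes scattered through the genome. The genes described here were all protein-coding genes whose GENCODE M21 symbol starts with Hist1h, Hist2h, Hist3h, Hist4h, H2af, H3f or H1f, a choice made by name and not by any measured value. The annotation holds 82 such genes, 67 clustered and 15 variant. Of these, 80 had a row in the data, 65 clustered and 15 variant, among 49585 gene identifiers. Hist1h2bm and Hist1h2bh were not analysed here. The data were FPKM values (RNA fragments counted per gene, scaled to transcript length and to the mapped fragments of the library) from bulk polyA RNA of the spinal dorsal horn at lumbar segments 4 to 6. The dorsal horn is the part of the cord that receives sensory input from the body. The samples came from adult mice of strain C57BL/6J, 4 wild type and 4 with a knock-out of the microRNA miR-96, with 1 library each. How the knock-out allele was made, and in which cells miR-96 was lost, is not given in the sources used here.

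Each nucleosome wraps DNA around a core built from histones H2A, H2B, H3 and H4, and the linker histone H1 binds where the DNA enters and leaves. Clustered genes mostly encode replication-dependent histones, made in S phase when DNA is copied; their mRNAs end in a short stem-loop, bound by the protein SLBP, in place of a polyA tail. Variant histones such as H2A.Z and H3.3 are made throughout the cell cycle from ordinary polyadenylated mRNAs and are the main supply of new histone in cells that no longer divide, such as neurons. Some clustered genes can also give polyadenylated transcripts that run past the stem-loop.

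The stem-loop is shown first because mRNAs that end at it carry no polyA tail, and these libraries were made from polyA RNA. It was searched for after the stop codon of each annotated transcript (GENCODE M21, GRCm38) as 16 bases, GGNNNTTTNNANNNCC, whose first 6 bases pair with the last 6. It was found in 44 of 67 clustered genes and in 1 of 15 variant genes, H2afx. Of 21869 other protein-coding genes, searched over whole transcripts and not only after the stop codon, 0.11% held it. The loops lay 21 to 58 nt after the stop codon, with a median of 31 nt. Of the 23 clustered genes without one, 15 are annotated with at most 2 nt after the stop codon, so the annotation leaves no room for it there. The genes printed are those measured at a mean of 1 FPKM or more, with capitals marking the stem-loop and its 5 flanking bases on each side in lower case, 5′ to 3′:
Hist1h4h (H4): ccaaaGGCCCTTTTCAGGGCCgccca
Hist1h4i (H4): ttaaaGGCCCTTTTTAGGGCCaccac
Hist3h2ba (H2B): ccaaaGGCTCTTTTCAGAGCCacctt
Hist1h2be (H2B): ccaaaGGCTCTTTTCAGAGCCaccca
Hist3h2a (H2A): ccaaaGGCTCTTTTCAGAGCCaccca
Hist2h3c2 (H3): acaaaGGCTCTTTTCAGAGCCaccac
Hist1h1c (H1): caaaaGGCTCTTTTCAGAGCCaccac
H2afx (variant H2A): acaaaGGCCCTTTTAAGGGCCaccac
The H4 genes used stem-loop forms that no other clustered family used: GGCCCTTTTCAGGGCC in 7 genes, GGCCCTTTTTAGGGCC in 2 and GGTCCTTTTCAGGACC in 2, which makes 11 H4 genes. The form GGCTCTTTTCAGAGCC was found in 26 genes of the H1, H2A, H2B and H3 families, and the 7 remaining genes with a loop, of the H1, H2A, H2B and H3 families, had GGCTCTTTTAAGAGCC (6 genes) or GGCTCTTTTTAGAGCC (1 gene). The transcript of Hist1h4h continues 46 nt past the loop, that of Hist1h4i 330 nt, that of Hist1h1c 840 nt and that of Hist3h2a 1643 nt. The annotated transcripts of Hist1h2bc and Hist2h2be, both H2B genes, hold no such loop and have 3′ UTRs of 742 nt and 2192 nt.

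The targeted microRNA gene, Mir96 (chromosome 6, 30169446 to 30169551), was listed at 0 FPKM in 8 of 8 libraries, so the libraries do not check the knock-out. Estimated depth was 31800000 to 42900000 fragments per library, and 24091 to 25560 genes were above 0 in each. Wild type replicate 1 stood apart from the other 7 libraries. Its summed FPKM over ribosomal protein genes was 39800 against 17200 to 22500, over red blood cell genes 199 against 5.96 to 39.3, and over mature oligodendrocyte genes 15300 against 9490 to 11600. It was the highest library for 12 of the 20 histone genes tested and for 30.0% of all genes tested, and values without it are given below. All 6 genes for plasma proteins made by the liver had higher values in knock-out at an unadjusted limma p under 0.05, with adjusted p of 0.159 or more. Their sum was 1.29 to 10.6 FPKM in wild type and 26.7 to 52.7 FPKM in knock-out; the part of any of these differences in the histone values was not tested. Neuron genes (summed 1580 to 1850 FPKM in wild type, 1600 to 1730 in knock-out), astrocyte genes (1700 to 2050 and 1890 to 2120), microglial genes (74.5 to 93.9 and 83.4 to 96.8), endothelial genes (81.4 to 87.1 and 71.4 to 103) and genes of oligodendrocyte precursors (127 to 149 and 106 to 135) overlapped between genotypes, as did meningeal fibroblast genes (81.8 to 117 and 83.1 to 193) and genes of neutrophils and lymphocytes (0.888 to 23.7 and 2.09 to 22.8). In bulk tissue, fewer cells of a type and less RNA per cell cannot be told apart.

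Variant histones made up 85.6% of all histone FPKM, and the 65 clustered genes 14.4%. Summed as means over the 8 libraries, the variant genes reached 562 FPKM and the clustered genes 94.6 FPKM. The variant H2A genes held 48.5% of the histone total, the 2 genes for H3.3 held 23.1% and the variant H1 genes 14.0%. Among clustered families, H2B held 9.07%, H4 2.24%, H1 2.06%, H2A 0.737% and H3 0.298%. Since the RNA was selected by polyA tail, mRNAs without a tail are under-represented, and these shares do not give the ratio of the proteins. Most clustered genes were listed at low values or at 0. A mean of 1 FPKM or more, the minimum for testing, was reached by 10 of 65 clustered genes and by 10 of 15 variant genes. All 8 libraries were at 0 for 11 clustered and 3 variant genes. Among these clustered genes, 0.0% to 100% of the 50-base windows of the annotated transcript are shared exactly with other genes. Genes at 100% have no 50-base stretch of their own, so a 0 there does not show absent RNA. How reads were assigned among such genes was not tested. The other 46 genes under the minimum had means up to 0.839 FPKM, the value of Hist1h4c, an H4 gene. The highest variant gene under it was H2afb3, of the short H2A.B type known from testis, at 0.125 FPKM.

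**Figure D1:**
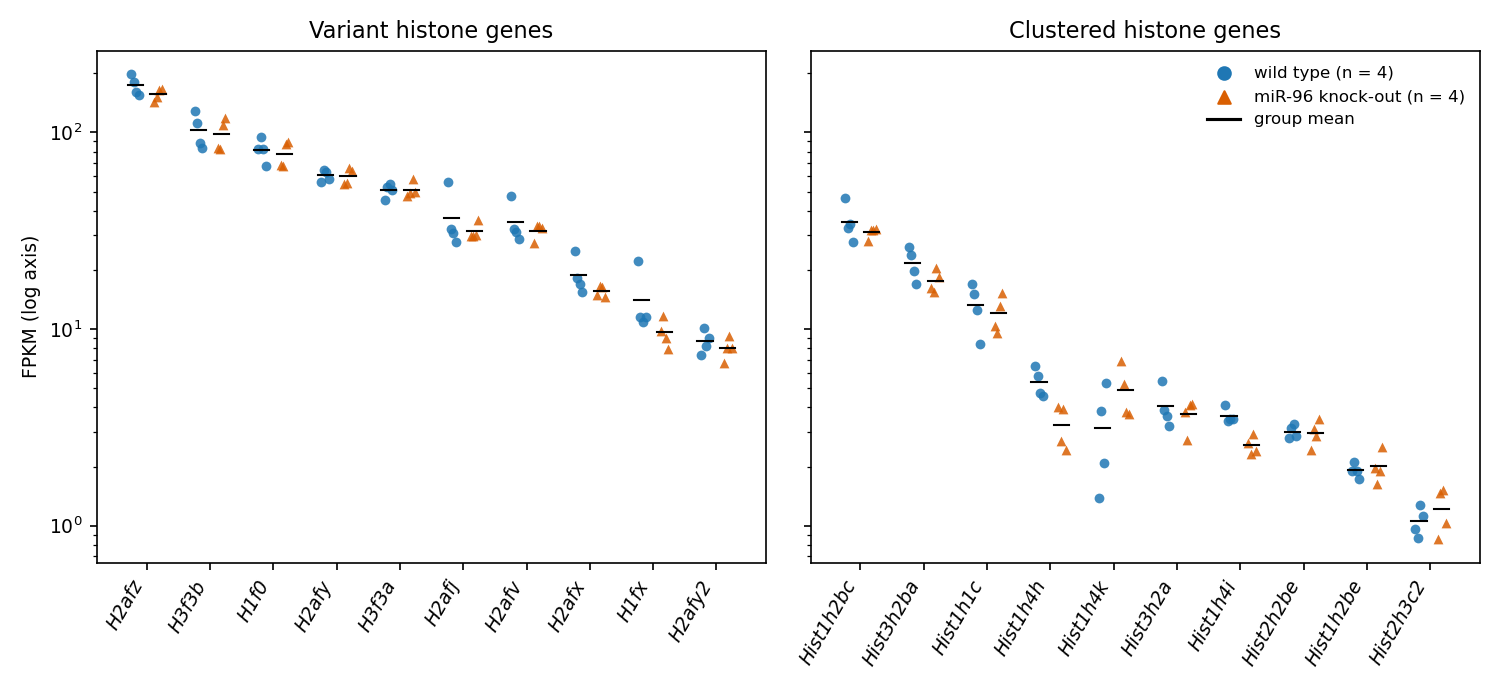
FPKM on a log axis of the 20 tested histone genes in each library, variant genes in the left panel and clustered genes in the right; circles are the 4 wild type libraries, triangles the 4 miR-96 knock-out libraries, and black lines the group means. The groups overlap for every gene except Hist1h4h and Hist1h4i, where the 4 knock-out libraries lie below the 4 wild type libraries.

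The question of the comparison was whether histone mRNA levels differed between miR-96 knock-out and wild type dorsal horn. No histone gene passed the test at an adjusted p of 0.05, as no gene did among all 15061 tested (0.0%; limma on log2(FPKM + 1), Benjamini-Hochberg adjustment over all of them). The lowest adjusted p of a histone gene was 0.62. At an unadjusted p under 0.05, 2 of the 20 histone genes tested were lower in the knock-out libraries, the H4 genes Hist1h4h and Hist1h4i, against 1.83% of all genes tested. Without wild type replicate 4, H2afx, Hist3h2ba and Hist1h4k also reached that p, 5 of 20, while the count over all 15061 genes went from 831 to 3151; H1fx reached it in some other settings. With all libraries, none had higher values, against 3.69% of all genes. The same 2 genes had all knock-out libraries below all wild type libraries, which was found for 1.12% of all genes. For the opposite order the count was 0 of 20, against 1.91% of all genes. The estimate was below 0 for 16 of the 20 genes, 7 of 10 clustered and 9 of 10 variant, and for 46.9% of all genes. The median log2 difference, knock-out minus wild type, was -0.10 for the clustered genes, -0.11 for the variant genes and 0.01 for all genes tested. Without wild type replicate 1 these medians were 0.00 and -0.05, and 12 of the 20 estimates were below 0. Ribosomal protein genes, the group highest in that library, were lower in knock-out for 77 of 77 tested, with a median log2 difference of -0.34; their part in the histone estimates was not tested. The p-values rest on the spread between libraries of the same genotype.

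**Figure D2:**
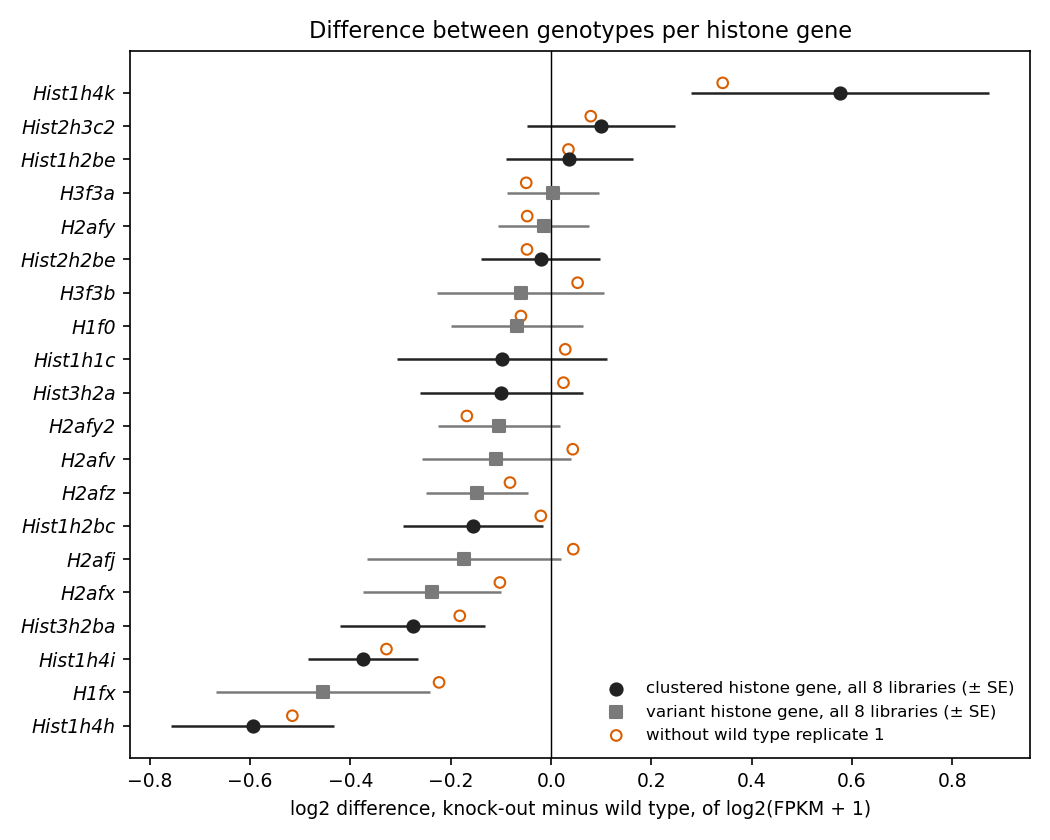
Log2 difference of log2(FPKM + 1), knock-out minus wild type, for each tested histone gene, sorted by size; filled symbols are the estimates from all 8 libraries with bars of 1 SE, circles for clustered and squares for variant genes, and open circles are the estimates without wild type replicate 1. Hist1h4h (-0.60) and H1fx (-0.45) are the lowest and Hist1h4k (0.58) the highest, and most open circles lie closer to 0 than the filled symbols.

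Variant H2A genes came highest. H2afz (ENSMUSG00000037894, chromosome 3, 137864487 to 137866922, plus strand) encodes H2A.Z, the variant found beside transcription start sites. It had the highest mean FPKM of the histone genes. Of the 50-base windows of its annotated transcript, 69.6% are shared exactly with other genes, 6 in number, so its value depends on how reads were assigned. The FPKM of H2afz was 198, 180, 162 and 155 in wild type replicates 1 to 4 and 143, 151, 164 and 167 in knock-out replicates 1 to 4. The groups overlapped, with means of 174 ± 19.5 and 156 ± 11.3 (SD, n = 4 each) and a log2 difference of -0.15 (SE 0.102, limma adjusted p = 0.622). That difference was -0.08 without wild type replicate 1 and -0.05 with quantile normalization. H2afv, which encodes a second form of H2A.Z, had 47.3, 32.2, 31.3 and 28.6 FPKM in wild type against 27.4, 33.5, 33.5 and 32.6 in knock-out. Here the highest library was wild type replicate 1, and the log2 difference of -0.11 (SE 0.149) became 0.04 without it. H2afj, a variant H2A gene that differs little from the clustered H2A genes, showed the same single high library: 56.2, 32.5, 30.8 and 27.9 FPKM in wild type against 29.7, 29.8, 30.0 and 36.1 in knock-out. Its log2 difference was -0.17 (SE 0.193) with that library and 0.04 without it.

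H2afx encodes H2A.X, the histone that is phosphorylated around DNA breaks. It had 24.9, 18.2, 16.9 and 15.4 FPKM in wild type against 14.8, 16.5, 16.4 and 14.6 in knock-out. The groups overlapped, with a log2 difference of -0.24 (SE 0.138) that came to -0.10 without wild type replicate 1. The macroH2A genes, whose proteins carry a large extra domain, had close means. H2afy had 60.4 ± 3.82 FPKM in wild type against 59.9 ± 5.75 in knock-out (SD, n = 4 each), a log2 difference of -0.01 with a 95% interval of -0.218 to 0.189. H2afy2 was at 8.67 ± 1.15 and 7.99 ± 1.03 FPKM (SD, n = 4 each), a log2 difference of -0.10 with an interval of -0.376 to 0.168.

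Both H3.3 genes, H3f3a and H3f3b, encode the same protein, the H3 that is placed outside S phase. H3f3b was at 129, 111, 88.7 and 83.4 FPKM in wild type against 83.7, 82.6, 109 and 118 in knock-out. Both genotypes spanned nearly the same range, and the log2 difference was -0.06 (95% interval -0.433 to 0.312) and 0.05 without wild type replicate 1. H3f3a had 51.0 ± 4.04 FPKM in wild type against 51.1 ± 4.52 in knock-out (SD, n = 4 each), a log2 difference of 0.00 with an interval of -0.202 to 0.209. Other genes, 41 in number, share exactly 30.3% of the 50-base windows of H3f3a, so its value depends on how reads were assigned. The linker histone variant H1f0, encoding H1.0, known from cells that have stopped dividing, was at 81.8 ± 11.0 and 78.0 ± 11.6 FPKM (SD, n = 4 each), with a log2 difference of -0.07 (SE 0.131). H1fx, the gene for the linker histone H1.X, had 22.3, 11.5, 10.9 and 11.5 FPKM in wild type against 9.80, 11.7, 9.05 and 7.94 in knock-out. Wild type replicate 1 stood above every other library, and knock-out replicate 2 lay above the remaining wild type libraries. The log2 difference of -0.45 (SE 0.213, unadjusted p = 0.0593, limma adjusted p = 0.62) came to -0.22 without that replicate. A gene model on the same strand, Gm47286, overlaps H1fx, so reads of the 2 cannot be told apart there.

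Of the clustered genes, the H2B gene Hist1h2bc (ENSMUSG00000018102, chromosome 13, 23684199 to 23692908, plus strand) was the highest. These coordinates are those of GENCODE M21 and differ from those in the deposited data. Of the 50-base windows of its annotated transcript, 30.6% are shared exactly with other genes, 220 in number, so its value depends on how reads were assigned. Hist1h2bc had 46.2, 32.7, 34.1 and 27.8 FPKM in wild type against 28.0, 31.9, 32.0 and 32.2 in knock-out. The knock-out libraries lay inside the wild type range, and the log2 difference of -0.16 (SE 0.139) was -0.02 without wild type replicate 1. Hist3h2ba, an H2B gene of the small cluster on chromosome 11, came next with 26.2, 23.9, 19.6 and 17.0 FPKM in wild type against 16.2, 15.4, 20.5 and 18.3 in knock-out. Its log2 difference was -0.28 (SE 0.144, unadjusted p = 0.0852, limma adjusted p = 0.62), with overlapping groups, and -0.18 without wild type replicate 1. The remaining H2B genes tested had close means: Hist2h2be had 3.01 ± 0.226 FPKM in wild type against 2.97 ± 0.448 in knock-out (SD, n = 4 each), and Hist1h2be 1.91 ± 0.157 and 2.00 ± 0.373. Their 95% intervals of the log2 difference were -0.286 to 0.245 and -0.245 to 0.318. Hist1h2be overlaps the H1 gene Hist1h1e on the same strand. The H2A gene Hist3h2a, which overlaps Trim17 on the same strand, was at 4.05 ± 0.971 and 3.70 ± 0.672 FPKM (SD, n = 4 each), and its log2 difference of -0.10 was 0.02 without that replicate. The H3 gene Hist2h3c2 was at 1.06 ± 0.183 and 1.21 ± 0.323 FPKM (SD, n = 4 each). It shares 63.5% of its 50-base windows exactly with other genes, so its separate value is uncertain. Hist1h1c, encoding the linker histone H1.2, had 16.9, 15.0, 12.4 and 8.37 FPKM in wild type against 10.3, 9.59, 13.2 and 15.2 in knock-out, ranges that overlapped widely, with a log2 difference of -0.10 (SE 0.209) that was 0.03 without wild type replicate 1.

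The H4 genes held both the lowest and the highest estimate. H4 is among the most conserved proteins, and the clustered H4 genes encode nearly all the same protein. Hist1h4h (ENSMUSG00000060981, chromosome 13, 23531050 to 23531519, plus strand) had 6.49, 5.81, 4.72 and 4.58 FPKM in wild type against 3.99, 2.69, 3.93 and 2.44 in knock-out. The coordinates printed for it are those of GENCODE M21 and differ from those in the deposited data. All knock-out libraries were below all wild type libraries, with a log2 difference of -0.60 (SE 0.162, unadjusted p = 0.00445, limma adjusted p = 0.62). Hist1h4i (ENSMUSG00000060639, chromosome 13, 22040636 to 22041362, minus strand) had 4.10, 3.42, 3.48 and 3.50 FPKM in wild type against 2.63, 2.30, 2.93 and 2.40 in knock-out. Again the groups did not overlap, and the log2 difference was -0.38 (SE 0.11, unadjusted p = 0.00688, limma adjusted p = 0.62). Without wild type replicate 1 the differences were -0.52 and -0.33. Hist1h4k (ENSMUSG00000064288, chromosome 13, 21750194 to 21750505, minus strand) went the opposite way with 1.38, 3.82, 2.09 and 5.30 FPKM in wild type against 6.85, 5.27, 3.77 and 3.70 in knock-out. The groups overlapped, and the log2 difference of 0.58 (SE 0.297, 95% interval -0.089 to 1.241, limma adjusted p = 0.62) was 0.34 without wild type replicate 1.

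How the authors' software shared reads among H4 genes bears on all 3. Of the 50-base windows of its annotated transcripts, Hist1h4k shares 71.5% exactly with other genes, 11 in number, and it is annotated as a 312 nt coding stretch alone. Hist1h4h shares 45.8% and Hist1h4i 28.9%. A fragment from shared sequence can be assigned to any of these genes, so their separate values are uncertain. The sum over the 13 clustered H4 genes is less touched by that split, although FPKM divides by lengths that differ between the genes, and it was 14.3, 16.4, 13.9 and 17.8 FPKM in wild type against 17.0, 13.5, 13.9 and 11.1 in knock-out. These totals overlapped, with means of 15.6 ± 1.83 and 13.9 ± 2.46 FPKM (SD, n = 4 each) and a log2 ratio of -0.17. That ratio was -0.08 without knock-out replicate 4, -0.10 without wild type replicate 4 and -0.29 without knock-out replicate 1. Taking out Hist1h4k, a choice made after its values were seen, left 13.0, 12.6, 11.8 and 12.5 FPKM in wild type against 10.2, 8.20, 10.1 and 7.36 in knock-out. Those totals did not overlap, with means of 12.5 and 8.96 FPKM and a log2 ratio of -0.48, given as a description only. Most of that sum is Hist1h4h (means 5.4 and 3.26 FPKM) and Hist1h4i (3.63 and 2.57), already seen not to overlap. The ratio thus largely restates those 2 genes and does not show a fall across the H4 family.

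**Figure D3:**
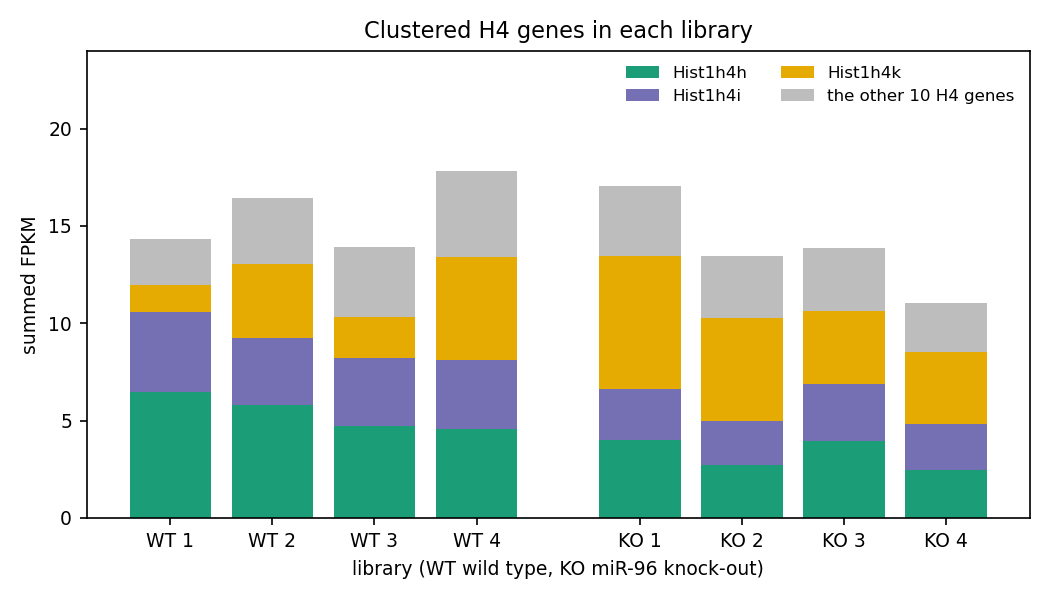
Summed FPKM of the 13 clustered H4 genes in each library, stacked as Hist1h4h, Hist1h4i, Hist1h4k and the other 10 genes; wild type libraries on the left, miR-96 knock-out libraries on the right. The green and purple parts are lower in the 4 knock-out libraries, the yellow part varies from 1.38 to 6.85 FPKM, and the full bars overlap between genotypes.

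By family, none of the other clustered totals separated the genotypes. Clustered H2B summed to 63.5 ± 11.3 FPKM in wild type against 55.5 ± 3.92 in knock-out, H1 to 13.6 ± 3.36 and 13.5 ± 2.22, H2A to 4.72 ± 1.10 and 4.96 ± 0.862, and H3 to 1.84 ± 0.668 and 2.08 ± 0.394 (SD, n = 4 each). The 55 clustered genes under the testing minimum together gave 4.53, 7.02, 7.70 and 8.68 FPKM in wild type against 9.44, 8.59, 7.34 and 8.76 in knock-out. The lowest sum was in wild type replicate 1 and the groups overlapped. Among the 46 histone genes above 0 but under the minimum, 3 had an unadjusted limma p under 0.05 with no minimum. They are named for that reason, after their values were seen. Over all genes, 1396 of 31319 reached that p in the same fit. Hist1h4n, an H4 gene, was at 0.18 to 0.43 FPKM in wild type and 0.00 to 0.07 in knock-out (unadjusted p = 0.000955, limma adjusted p = 0.747 with no minimum). It shares 85.6% of its 50-base windows exactly with other genes, so its separate value is uncertain. Hist1h1b, for the linker histone H1.5, was at 0.00 to 0.07 in wild type and 0.13 to 0.27 in knock-out (unadjusted p = 0.00297, limma adjusted p = 0.747). Of all genes with a mean between 0 and 1 FPKM, 0.664% had every knock-out library lower and 1.61% every knock-out library higher. Hist1h1e, for H1.4, had 0.08, 0.07, 0.40 and 0.87 FPKM in wild type against 0.83, 1.83, 0.92 and 0.79 in knock-out, with overlap (unadjusted p = 0.0175, limma adjusted p = 0.747).

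The level of a clustered gene went with how long a 3′ UTR the annotation gives it. Of 27 genes with a 3′ UTR over 120 nt, 8 reached a mean of 1 FPKM, and their median was 0.38 FPKM. Of 23 genes with 3 to 120 nt, 1 did, Hist1h4h with 93 nt, and the median was 0.0471 FPKM. Of 15 genes annotated with at most 2 nt, 1 did, Hist1h4k, and the median was 0.0383 FPKM. The limit of 120 nt was chosen after the annotation had been seen, so these counts are a description. Sequence sharing moved with the classes, since the median gene shared 28.9%, 65.8% and 85.8% of its 50-base windows with other genes in the same order; its part in the levels was not tested. An annotated 3′ UTR can itself come from polyadenylated transcripts seen in earlier sequencing. Only 58 of the 80 histone genes carry the annotation's coordinates in the deposited data. For the others the annotated 3′ UTR may not belong to the gene model that was measured. Among these are Hist1h2bc and Hist1h2be of the class over 120 nt, and Hist1h4h.

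**Figure D4:**
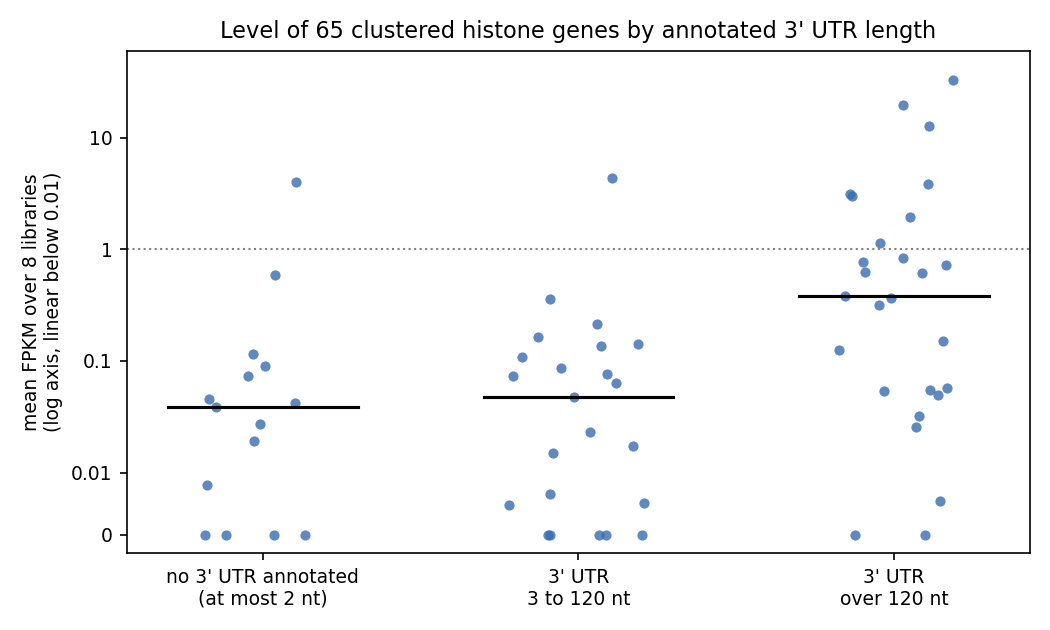
Mean FPKM over the 8 libraries of the 65 clustered histone genes, by length of the annotated 3′ UTR; each point is a gene, black lines are class medians, the dotted line marks 1 FPKM, and the axis is logarithmic above 0.01 FPKM. Medians are 0.0383, 0.0471 and 0.38 FPKM from left to right, and 8 of the 10 genes at or above 1 FPKM are in the class over 120 nt. For genes with other coordinates in the deposited data, the annotated 3′ UTR may not be that of the gene model measured.

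Many H2A and H2B genes stand head to head and share the DNA between their start sites. With start sites at most 1000 bp apart, 13 head-to-head pairs of clustered genes were found. Of these, 12 join an H2A and an H2B gene and had both genes in the data; the remaining pair joins Hist1h2bh, not analysed here, to an H3 gene. In 10 of the 12 pairs neither gene reached a mean of 1 FPKM, in 2 pairs 1 gene did, and in 0 pairs both did. The 2 uneven pairs are named after their values were seen. Hist1h2bc had 33.1 FPKM and its partner Hist1h2ac, an H2A gene starting 251 bp away, 0.15 FPKM. Hist2h2be had 2.99 FPKM and its partner Hist2h2ac, 239 bp away, 0.0731 FPKM. In both pairs the higher gene was the H2B gene, whose annotated transcript holds no stem-loop, while Hist1h2ac and Hist2h2ac have one. In other pairs, H2B genes without an annotated loop were also under 1 FPKM. Hist3h2ba and Hist1h1c, which have the loop, had means of 19.7 and 12.6 FPKM. The part of the loop in these levels was not tested.

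The promoters of the 2 H4 genes with lower values in knock-out and the window between Hist1h2ac and Hist1h2bc are printed to show how the H4 promoters differ from those of the other families. Of the 80 genes and the 2 not analysed here, 75 had a promoter in the RefSeq table (GRCm38.p6), 61 clustered and 14 variant. Each is 300 bases, 250 before and 50 after the RefSeq start, written 5′ to 3′ on the gene's strand. Capitals mark 4 strings on either strand and at any position: CCAAT (the CCAAT box), TATAAA (the string of the TATA box), ATTTGCAT (the octamer) and GGTCCG (the H4 element). Distance from the start was not considered, so a marked TATAAA need not be a working TATA box:
Hist1h4h, chr13:23530794-23531093, plus strand: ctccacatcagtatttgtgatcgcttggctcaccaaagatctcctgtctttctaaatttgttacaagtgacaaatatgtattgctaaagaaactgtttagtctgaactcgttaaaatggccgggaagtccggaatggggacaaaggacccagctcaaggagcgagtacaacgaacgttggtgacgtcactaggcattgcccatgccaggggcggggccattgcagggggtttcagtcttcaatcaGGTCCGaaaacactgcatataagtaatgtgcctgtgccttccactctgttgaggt
Hist1h4i, chr13:22041313-22041612, minus strand: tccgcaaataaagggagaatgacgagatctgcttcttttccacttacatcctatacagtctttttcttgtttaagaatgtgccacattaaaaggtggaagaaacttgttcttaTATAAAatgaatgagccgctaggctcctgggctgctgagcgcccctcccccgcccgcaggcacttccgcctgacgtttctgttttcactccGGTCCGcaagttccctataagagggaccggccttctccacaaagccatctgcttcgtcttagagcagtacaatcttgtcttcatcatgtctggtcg
Hist1h2ac, chr13:23683910-23684209, minus strand: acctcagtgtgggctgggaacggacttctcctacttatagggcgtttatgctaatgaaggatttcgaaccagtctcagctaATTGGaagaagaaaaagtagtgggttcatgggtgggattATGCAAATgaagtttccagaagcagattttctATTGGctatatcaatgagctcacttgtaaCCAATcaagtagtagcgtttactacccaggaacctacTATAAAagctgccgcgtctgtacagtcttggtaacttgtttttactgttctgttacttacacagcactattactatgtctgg
CCAAT, the CCAAT box, was present in 49 of 49 promoters of clustered H1, H2A, H2B and H3 genes and in 3 of 12 H4 promoters, as well as in 10 of 14 variant promoters, against 37.4% of all 32851 promoters in the table. GGTCCG, part of an element known from H4 promoters and added to the search after these promoters had been read, was in 11 of 12 H4 promoters, in 2 of the 49 other clustered promoters, in 4 of 14 variant promoters and in 8.25% of all. The string TATAAA, at any position, was in 57.4% of clustered, 7.14% of variant and 13.6% of all promoters. The octamer ATTTGCAT, the site of POU-domain factors, was in 13 clustered promoters, 7 H2A and 6 H2B, and in 1.74% of all promoters. Windows of head-to-head genes overlap, so such promoters are not independent, and a match is a string of letters, not a measured site.

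**Figure D5:**
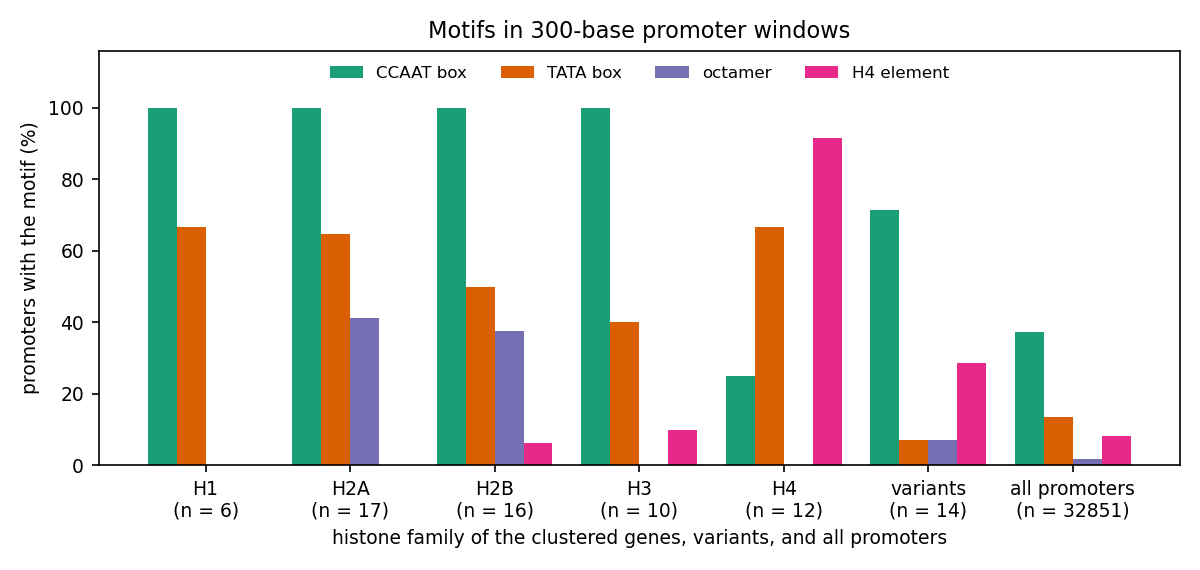
Percent of 300-base promoter windows that hold each motif on either strand, for clustered genes by family, variant histone genes and all promoters of the RefSeq table. The number of promoters is under each group. "H4 element" stands for GGTCCG and "TATA box" for the string TATAAA anywhere in the window. The CCAAT box is in 100% of clustered H1, H2A, H2B and H3 windows and 25.0% of H4 windows, and the H4 element in 91.7% of H4 windows.

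A microRNA pairs through its seed, bases 2 to 8, with sites mostly in 3′ UTRs, and lowers the mRNAs it binds. The mature miR-96 (RefSeq, GRCm38.p6, chromosome 6, 30169506 to 30169528, minus strand) is printed with its seed in capitals, and with it the site in the 1 tested histone gene that has a seed match, the match in capitals:
mmu-miR-96-5p: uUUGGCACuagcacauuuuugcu
Hist1h2be 3′ UTR: aagataaaacTGCCAAAttggctactt
The longest annotated 3′ UTR of each gene was searched for GTGCCAA (pairing with bases 2 to 8) and TGCCAAA (pairing with bases 1 to 7). Other 3′ UTRs of genes with several transcripts were not searched. Matches were found in Hist1h2be, 180 nt after the stop codon of 1 of its transcripts, in the H2B genes Hist1h2bq and Hist1h2br, and in H1foo, the oocyte linker histone, the only one with GTGCCAA. Hist1h2be had 1.90, 2.12, 1.91 and 1.73 FPKM in wild type against 1.96, 1.64, 1.90 and 2.52 in knock-out, with overlap and a log2 difference of 0.04 (SE 0.126, limma adjusted p = 0.914). Hist1h2bq had 0.05 FPKM on average, Hist1h2br 0.00547 and H1foo 0.00759, all under the minimum and named because they hold a match. Hist1h4h and Hist1h4i, the genes with lower values in knock-out, hold no match.

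No gene that makes, carries or accompanies histones in the lists below passed the adjusted test with all libraries weighted equally; with estimated library weights Ubn2, Asf1a and Cstf2 did (adjusted p = 0.039, 0.0389 and 0.0461), among 1627 genes in all. Of 12 genes for transcription and 3′ end formation of histone mRNA, 11 were tested and 0 reached an unadjusted p under 0.05. Slbp, whose protein binds the stem-loop, had 20.0 ± 1.90 FPKM in wild type against 17.5 ± 1.54 in knock-out (SD, n = 4 each; log2 difference -0.18, SE 0.0977, limma adjusted p = 0.62). Cstf2, a cleavage factor subunit, had 42.8 ± 13.3 and 53.7 ± 5.89 FPKM (log2 difference 0.36, limma adjusted p = 0.62; SD, n = 4 each). The Cstf2 difference was 0.18 without wild type replicate 1, 0.54 without wild type replicate 4 and 0.17 with a length trend removed. Of 23 histone chaperones and exchange factors, which carry histones to and from DNA, 21 were tested and 3 had higher values in knock-out at an unadjusted p under 0.05, against 3.69% of all genes tested, and 0 had lower values, against 1.83%. They were Ubn2, of the HIRA complex for H3.3 (log2 difference 0.37, limma adjusted p = 0.62), Supt16, of the FACT complex (0.42, adjusted p = 0.62), and the H3-H4 chaperone Asf1a (0.23, adjusted p = 0.62), named after its values were seen. With a length trend removed Ubn2 was at 0.02 (unadjusted p = 0.82), and without wild type replicate 1 Supt16 was at 0.23 (unadjusted p = 0.043). Leaving out other single libraries took the unadjusted p of Ubn2, Supt16 and Asf1a as high as 0.0595, 0.0857 and 0.11. The list's median log2 difference was 0.05, beside 0.01 for all genes. Of 23 genes of S phase and cell division, 14 were tested and 1, Tk1, the thymidine kinase of S phase, had higher values at an unadjusted p under 0.05 (log2 difference 0.32, limma adjusted p = 0.62). That p was 0.101 without wild type replicate 1. Ccne1, cyclin E1, was at -0.18 (limma adjusted p = 0.62). The other 9 had means under the testing minimum, among them Mki67 and Top2a. Mki67, present in dividing cells, was at 0.0726 ± 0.0237 FPKM in wild type against 0.0768 ± 0.0453 in knock-out, and Top2a, a topoisomerase of dividing cells, at 0.277 ± 0.192 and 0.394 ± 0.168 (SD, n = 4 each).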

How the data were processed

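The authors made polyA libraries from total RNA with an NEBNext Ultra kit, per the labels' protocols. The tools listed are HISAT2, SAMtools and Cufflinks, per the submitters' processing notes, with no versions. The notes name build mm8, but 91.5% of identifiers with a symbol carry the same coordinates as GENCODE M21 on GRCm38 (58 of the 80 histone genes), so annotation coordinates on GRCm38 are printed. Among the tested histone genes, Hist1h4h, Hist1h2bc, Hist1h2be and H1f0 carry other coordinates in the deposited data. Many clustered genes under the testing minimum do so too. For all of these, annotated transcript and 3′ UTR lengths may therefore not be those of the gene models that were measured. The deposited unit is FPKM per gene and library, and no read counts were used here.

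Genes were assigned by identifier through GENCODE M21. Genes with a mean of at least 1 FPKM over the 8 libraries were tested with limma 3.58.1 in R 4.3.3 (linear model, trend and robust moderation, two-sided) on log2(FPKM + 1), with Benjamini-Hochberg adjustment over 15061 genes. A pseudocount of 1 understates differences of low genes. The method was tested on simulated data. Other computations used Python 3.11.15 and pandas 2.3.3.

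Histone genes at or above the minimum could be named, the others only with a sequence or as the highest. Slbp, Mki67, Top2a and up to 2 genes of lowest p per list were also named. Genes outside that rule (Asf1a, Hist1h1b, Hist1h1e, Hist1h4n, the partners in head-to-head pairs and the genes with a miR-96 seed match) were named after their values or sequences were seen. Members and gene lists were chosen with earlier results of these data known. Alternatives were another pseudocount, other minimums, rescaling, quantile normalization, plain limma, library weights, removal of a length trend, a replicate block and leaving out each library. Depth was estimated from single-transcript genes of at least 3000 nt with an assumed fragment of 200 nt, where 97.7% to 98.7% of values came within 0.15 of whole fragments.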

Additional observations from a re-analysis of the deposited data

Results flagged for a closer look

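In 40 groups of 4 libraries, 1 genotype for each of the 20 tested histone genes, 6 held a library farther from the rest than Dixon's limit for 4 values; chance alone gives about 1 in 20 such groups. In wild type, replicate 1 was the high library for H2afj (56.2 FPKM against 27.9 to 32.5 in the other 3), H1fx (22.3 against 10.9 to 11.5) and Hist1h4i (4.1 against 3.42 to 3.50). In knock-out, replicate 4 was high for H2afj (36.1 FPKM against 29.7 to 30.0), and replicate 1 was low for H2afv (27.4 against 32.6 to 33.5) and Hist1h2bc (28.0 against 31.9 to 32.2). For Hist1h4i the outlying wild type library lies farther from the knock-out libraries than the other 3 do, and the log2 difference without it was -0.33.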

How the results depend on the processing

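Hist1h4h and Hist1h4i kept a lower value in knock-out under every setting in which they were tested (log2 difference -0.73 to -0.50 and -0.48 to -0.32), each with an unadjusted limma p under 0.05; a minimum mean of 5 FPKM left both out. Their adjusted p ranged from 0.0389 to 0.833. With library weights estimated by limma, 1627 genes passed an adjusted p of 0.05 and 5014 an unadjusted one, in place of 0 and 831. Under those weights Hist1h4h (-0.54, adjusted p = 0.0389), Hist1h4i (-0.37, adjusted p = 0.0389) and Hist1h4k (0.82, adjusted p = 0.0424) passed, as did Ubn2 (0.40, adjusted p = 0.039), Asf1a (0.32, adjusted p = 0.0389) and Cstf2 (0.34, adjusted p = 0.0461); the weight of wild type replicate 1 was 0.153 and that of wild type replicate 3 was 5.09, so 1 library carried much of its group. With no minimum the count at an unadjusted p under 0.05 was 1396. Fits that each omitted 1 library gave 0 to 1 gene past the adjusted threshold (1 without knock-out replicate 2) and 325 to 3151 at the unadjusted one; the highest count, 3151, was without wild type replicate 4, and the counts without knock-out replicates 1, 2, 3 and 4 were 325, 352, 1438 and 425.

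The median log2 difference of clustered genes ranged from -0.22 to 0.02 and that of variant genes from -0.17 to -0.04. Small differences changed sign: H2afy (0.0127), Hist1h2be (-0.0321) and Hist2h3c2 (-0.0146) with quantile normalization, H3f3a with median-ratio rescaling (-0.0023) and with library weights (-0.11), H2afv (0.0073) and Hist1h2be (-0.012) with library weights, and Hist2h2be (0.0054) with a length trend removed. With 1 library left out at a time the ranges were H3f3b -0.15 to 0.0529, H1f0 -0.16 to 0.0034, H2afy -0.0603 to 0.0263, H3f3a -0.0555 to 0.0396, H2afj -0.28 to 0.0443, H2afv -0.19 to 0.0433, Hist1h1c -0.28 to 0.0283, Hist3h2a -0.18 to 0.0247, Hist2h2be -0.082 to 0.0486 and Hist1h2be -0.0429 to 0.10. The cause was not tested. With the replicate number as a block, 790 genes had an unadjusted p under 0.05 and 0 an adjusted one; same-numbered libraries correlated at -0.108, -0.0551, 0.0241 and 0.144, so the numbers were taken as names. With the block, or with quantile normalization, H1fx joined Hist1h4h and Hist1h4i at an unadjusted p under 0.05, 3 of 20. Histone values under 1 FPKM rest on few fragments and are uncertain at this depth.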
